A study of Mus musculus with 12 samples.

Results

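A set of 7 genes of peripheral nerve was followed through the skeletal muscle of mice lacking αB-crystallin and HspB2. They were Mbp, Pmp22, Prx, Sox10, S100b, Mag and Slc5a7, found by symbol as 7 of the 22923 distinct symbols in the expression files. Of a symbol listed more than 1 time, the row with the highest mean is used. The genes were picked with results of these same samples known, so their values are given as a description, with no test. The muscle came from the proximal hind leg of 12 male mice of the FVB/N background (FVB in the labels) at 22 weeks of age. WT normal chow, WT high fat, KO normal chow and KO high fat were the groups, with 3 mice in each and 1 library per mouse. KO mice carried a global deletion of both chaperone genes, not one limited to muscle or nerve. WT mice were littermates, which the titles call Flox, and the high fat diet began at 6 weeks of age. The labels give no batch. Values are FPKM, a fragment count corrected for the length of the transcript and the size of the library, so that levels can be compared between genes.

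Motor and sensory axons run through muscle in small nerve branches, wrapped by Schwann cells. A myelinating Schwann cell winds its membrane around an axon, under the control of the transcription factor Sox10, and compacts it with proteins that include the basic protein Mbp and the membrane protein Pmp22. Periaxin (Prx) links the outer Schwann cell membrane to the surrounding matrix, Mag faces the axon, and S100b is a calcium-binding protein of Schwann cells that fat cells also make. Slc5a7 differs from these 6, since it is the choline transporter that motor nerve endings use to make acetylcholine. The cell bodies of motor neurons lie in the spinal cord, so muscle holds Schwann cell nuclei but not those of motor neurons.

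The genotype stood with the titles in every library. Cryab, which encodes αB-crystallin, was at 412 to 837 FPKM in the 6 WT libraries and at 0.845 to 1.75 FPKM in the 6 KO libraries. Hspb2 was at 81.5 to 103 FPKM in WT and at 0.353 to 1.92 FPKM in KO. The genotype label of 6 samples goes against the title, and the titles are used here. Depth in reads is unknown. Libraries differed at most 1.35 times in relative depth, read from the steps between low values. Muscle fibre markers were high in all libraries, although Acta1 was listed at 0 in 2 libraries and Myh4 in 12, so an exact 0 in these files can be a failed estimate. For the genes described here WT normal chow replicate 3 stood apart from its group, and 3 other libraries held lymphocyte markers (WT normal chow replicate 2 and KO normal chow replicates 1 and 3).

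In the GENCODE M21 annotation of mouse GRCm38, all 7 genes are protein coding. Prx lies at chr7:27499324-27520214 on the plus strand and Mag at chr7:30899176-30914873 on the minus strand. Pmp22 lies at chr11:63128982-63159547 on the plus strand, Sox10 at chr15:79154908-79165240 on the minus strand and Slc5a7 at chr17:54273590-54299034 on the minus strand. S100b lies at chr10:76253853-76261159 on the plus strand. S100b shares 1731 bp with Dip2a on the other strand, Prx shares 5405 bp with the predicted gene Gm15541, and Mbp shares 483 bp with a ribosomal pseudogene. The library kit does not keep the strand, so reads from these stretches cannot be told apart.

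RefSeq promoter windows were at hand for 5 of the 7 genes. The 250 bases before the annotated start are shown for Prx and Mag, which lie on the same chromosome and moved together, and for Slc5a7, which did not move with them. For each gene the RefSeq start nearest to the GENCODE start was taken, which was the same base for Prx and Slc5a7 and 10 bases away for Mag. All are 5′ to 3′ on the strand of the gene, from GRCm38.p6, and capitals mark a match to a Sox motif read on the opposite strand.
Prx, chr7:27499074-27499323, plus strand: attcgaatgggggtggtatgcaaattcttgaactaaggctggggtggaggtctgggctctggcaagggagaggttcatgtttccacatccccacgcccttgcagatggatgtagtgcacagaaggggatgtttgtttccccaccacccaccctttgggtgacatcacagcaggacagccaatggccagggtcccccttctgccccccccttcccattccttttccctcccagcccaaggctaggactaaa
Mag, chr7:30914864-30915113, minus strand: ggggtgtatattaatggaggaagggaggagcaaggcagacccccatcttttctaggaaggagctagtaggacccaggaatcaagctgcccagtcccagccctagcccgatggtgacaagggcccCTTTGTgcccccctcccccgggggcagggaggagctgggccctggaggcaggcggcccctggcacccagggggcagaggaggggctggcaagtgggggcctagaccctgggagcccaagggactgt
Slc5a7, chr17:54299035-54299284, minus strand: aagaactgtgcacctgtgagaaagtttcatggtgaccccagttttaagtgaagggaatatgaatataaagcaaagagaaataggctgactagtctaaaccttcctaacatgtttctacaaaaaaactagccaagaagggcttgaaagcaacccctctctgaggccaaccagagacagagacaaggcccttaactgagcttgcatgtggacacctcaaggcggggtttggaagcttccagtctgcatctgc

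The 3 motifs searched on both strands were the Sox cores ACAAAG and AACAAT and the Egr core GTGGGCG, and no match of 1 overlapped a match of another. Over the 10 windows of 300 bases that RefSeq gives for the 5 genes, 2 held a match. Both are windows of Mag that share the same ACAAAG, which begins 126 bases before the start in the window shown. Among all 32851 promoter windows of this length, 16.5% held ACAAAG, 9.42% held AACAAT and 7.02% held GTGGGCG. The windows of Prx, Pmp22, S100b and Slc5a7 held none of these letters, which says nothing about binding elsewhere.

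Mbp, annotated at chr18:82475146-82585637 on the plus strand, was among the most abundant of the nerve genes and varied 6.13-fold across libraries. It was at 20.4, 22.1 and 125 FPKM in the 3 WT normal chow libraries and at 30.9, 53.6 and 49.2 FPKM in WT high fat. In KO normal chow it was at 95.3, 116 and 73.6 FPKM, and in KO high fat at 56.7, 40.8 and 32.5 FPKM. Replicate 3 of WT normal chow was the highest of all 12 libraries, while the other 2 of its group were the lowest. All 3 KO normal chow libraries lay above every high fat library. The group means were 55.8 ± 59.9 in WT normal chow, 44.5 ± 12.1 in WT high fat, 95.0 ± 21.3 in KO normal chow and 43.3 ± 12.3 FPKM in KO high fat (SD, n = 3 each).

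Pmp22, whose dosage is known from hereditary neuropathies, followed Mbp library by library. It was at 42.5, 43.6 and 144 FPKM in WT normal chow and at 42.6, 78.4 and 70.5 FPKM in WT high fat. It was at 129.7, 137 and 94.1 FPKM in KO normal chow and at 82.2, 75.6 and 59.5 FPKM in KO high fat. The KO normal chow libraries were again above all high fat libraries, and WT normal chow again split into 1 high and 2 low libraries. Its means were 76.8 ± 58.5, 63.8 ± 18.8, 120.4 ± 23.1 and 72.5 ± 11.7 FPKM in WT normal chow, WT high fat, KO normal chow and KO high fat (SD, n = 3 each).

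Prx ordered the libraries almost as Mbp did, at a lower level. It was at 2.69, 3.28 and 15.4 FPKM in WT normal chow, at 4.44, 7.27 and 5.77 FPKM in WT high fat, at 11.6, 14.9 and 8.13 FPKM in KO normal chow and at 7.75, 4.45 and 3.68 FPKM in KO high fat. Mag was at 0.474, 0.788 and 1.86 FPKM in WT normal chow, at 0.920, 1.12 and 0.971 FPKM in WT high fat, at 1.64, 1.94 and 1.09 FPKM in KO normal chow and at 0.899, 1.03 and 0.718 FPKM in KO high fat. Both genes had WT normal chow replicate 3 and KO normal chow replicates 1 and 2 as their 3 highest libraries. The mean of Prx was 11.55 ± 3.37 FPKM in KO normal chow and 5.29 ± 2.16 FPKM in KO high fat, and that of Mag was 1.56 ± 0.434 FPKM and 0.882 ± 0.156 FPKM (SD, n = 3 each).

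Sox10, the transcription factor of the lineage, varied least of the 6 Schwann cell genes, 2.28-fold over all libraries. It was at 2.02, 1.81 and 4.13 FPKM in WT normal chow and at 2.19, 2.64 and 2.43 FPKM in WT high fat. It was at 3.71, 3.79 and 2.26 FPKM in KO normal chow and at 1.90, 2.51 and 1.81 FPKM in KO high fat. Its highest libraries were those of Mbp, but KO normal chow replicate 3 lay among the high fat libraries.

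S100b was at 1.00, 2.74 and 5.01 FPKM in WT normal chow and at 1.53, 2.46 and 3.0 FPKM in WT high fat. It was at 5.38, 4.99 and 3.70 FPKM in KO normal chow and at 2.64, 2.20 and 1.79 FPKM in KO high fat. Within WT normal chow, replicate 2 lay between the other 2 libraries, where Mbp, Pmp22 and Prx were low. Per 100 FPKM of Mbp, S100b stood at 12.4 FPKM in that library and at 4.01 to 6.10 FPKM in the other 11. The same library had 778 FPKM of 6 summed adipocyte markers and 59.0 FPKM of 6 summed lymphocyte markers, against 120.1 and 0.421 FPKM in replicate 1 of its group. KO normal chow replicates 1 and 3 had more of both, with 1822 and 1864 FPKM of adipocyte and 70.2 and 66.9 FPKM of lymphocyte markers. Their S100b per 100 FPKM of Mbp was at 5.65 and 5.03 FPKM. Mbp was at 95.3 and 73.6 FPKM in these 2 libraries, against 22.1 FPKM in WT normal chow replicate 2. The part of these cell types in the S100b level was not tested.

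**Figure D1:**
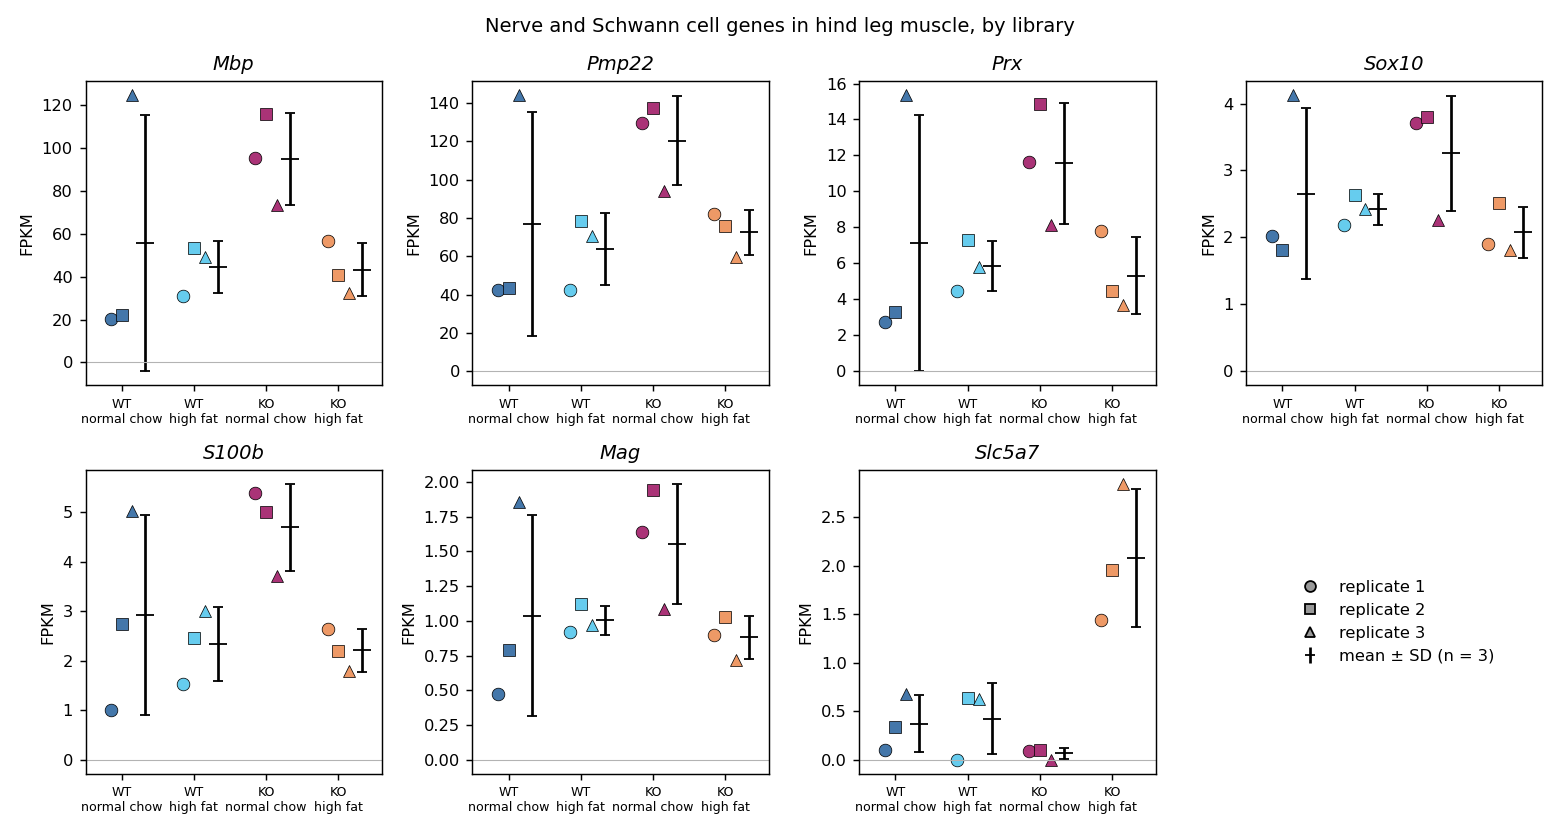
FPKM (linear axis) of the 7 genes in each library, by group. Points are libraries, with the replicate number as the shape, and bars are the mean ± SD of 3 libraries. For Mbp, WT normal chow replicate 3 is at 125 FPKM against 20.4 and 22.1 FPKM in the other 2, and Slc5a7 is highest in the 3 KO high fat libraries.

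The order of the 4 groups by mean was not settled by these libraries. For each of the 6 Schwann cell genes KO normal chow had the highest mean and WT normal chow the next, and the libraries of every pair of neighbours in the order overlapped. The spread within WT normal chow was unusual. For Mbp the 3 libraries spanned 2.56 on the log2(FPKM + 1) scale, and 0.477% of the 11945 tested genes spanned more in that group. The corresponding shares were 0.795% for Prx, 1.46% for Pmp22, 1.88% for S100b, 5.11% for Mag and 5.87% for Sox10. The libraries of the high fat groups spanned less than those of WT normal chow, for Mbp 0.78 in WT and 0.78 in KO on that scale, and for Mbp the KO normal chow libraries spanned 0.65. Over the 6 high fat libraries Mbp ranged from 30.9 to 56.7 FPKM, and of the 6 normal chow libraries 4 lay above that range and 2 below it. Prx split the same way, 4 above and 2 below, and Pmp22 had 4 above and 1 below.

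The 6 Schwann cell genes varied together over the libraries. Their 15 pairs had Pearson correlations of 0.78 to 0.98 over 12 libraries on the log2(FPKM + 1) scale, as a description of libraries that share groups and depth. Of the other 5, Prx kept the most even ratio to Mbp. The Mbp to Prx ratio of FPKM ran from 6.73 to 9.17, which is a 1.36-fold range, while Mbp itself varied 6.13-fold. The ratio of Mbp to Pmp22 varied 1.81-fold and that to Mag 2.41-fold. The ratios of Mbp to S100b and to Sox10 varied 3.09 and 3.23-fold. In muscle homogenate, more Schwann cells and more of these transcripts per Schwann cell cannot be told apart.

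Genes with the pattern most like that of the 6 were looked for among 11458 tested genes of mean FPKM of at least 1. Plekha4 was the closest (r = 0.99 with the mean of the centred values of the 6, over 12 libraries), at 8.10 FPKM in WT normal chow replicate 3 and 2.60 to 3.0 FPKM in the other 2. Mal, a myelin membrane gene, followed (r = 0.99), at 9.50 FPKM in that replicate 3 and 1.86 to 2.0 FPKM in the other 2. Ndrg1, whose loss causes a demyelinating neuropathy, was also near (r = 0.98) and ran from 17.9 to 37.9 FPKM. A330049M08Rik, which RefSeq lists as Ncmap, a compact myelin protein, and Aatk had r = 0.98 each.

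The peripheral myelin list held 16 genes outside the 7, of which 15 passed the filter of at least 1 FPKM in at least 3 libraries. Cadm4, an adhesion molecule between Schwann cell and axon, was at 2.84, 2.35 and 11.2 FPKM in WT normal chow, 3.6, 6.12 and 5.20 FPKM in WT high fat, 8.66, 10.7 and 6.36 FPKM in KO normal chow and 5.92, 6.27 and 4.08 FPKM in KO high fat. Cnp, an enzyme that other cells also make, varied least of the list, from 7.74 to 15.9 FPKM. In WT normal chow Cnp was at 7.74, 11.3 and 11.9 FPKM and did not split into 1 high and 2 low libraries. The high library of that group was high for other myelin genes that played no part in the choice of the 7, such as Cadm4. Mal was high there too, but it was named above for its likeness to the 6. The peripheral myelin list was, however, drawn up with the values of the 7 genes known.

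**Figure D2:**
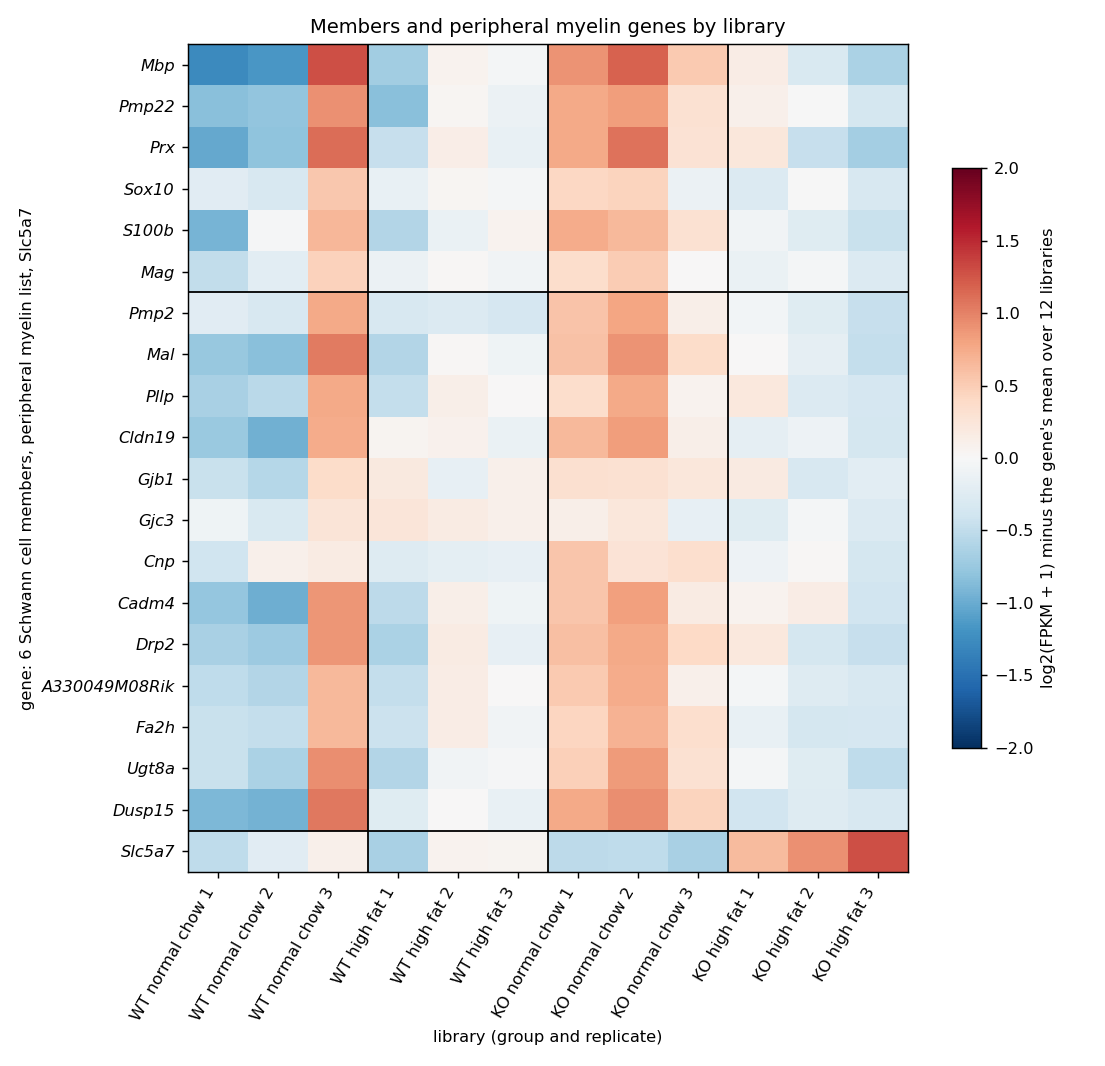
Centred log2(FPKM + 1) of the 6 Schwann cell genes, peripheral myelin genes and Slc5a7 (rows) in the 12 libraries (columns); red is above and blue below the gene's mean over all libraries. WT normal chow replicate 3 and the KO normal chow libraries are red for most myelin genes, with 1 high and 2 low libraries in WT normal chow.

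Markers of other cell types were summed in each library. The summed level of 6 lymphocyte markers was at 59.0 to 70.2 FPKM in WT normal chow replicate 2 and KO normal chow replicates 1 and 3 and at 0.421 to 4.67 FPKM elsewhere, and Cd3e, Cd79a, Ms4a1 and Ccr7 were each listed at 0 in 1 library. The highest libraries for myelin, WT normal chow replicate 3 and KO normal chow replicate 2, had 0.475 and 0.912 FPKM of them. Summed markers of 6 adipocyte genes ranged from 120.1 to 778 FPKM in WT normal chow and 6.20 to 414 in WT high fat. The sum was 865 to 1864 FPKM in KO normal chow and 401 to 562 in KO high fat. Cfd led it, with a mean of 1034 FPKM in KO normal chow and 90.2 FPKM in KO high fat. Adipoq, Plin1 and Retn also had lower means in KO high fat. Cidec had means of 106 FPKM in KO normal chow and 110 FPKM in KO high fat, and Lep 23.2 and 75.2 FPKM. Melanocyte markers, led by Mlana, summed to at most 1.37 FPKM, and melanocytes, like Schwann cells, arise from the neural crest and express Sox10. Of 5 oligodendrocyte markers, Mobp and Opalin were listed at 0 in all 12 libraries and Mog in 7, while Aspa was at 8.92 to 15.4 FPKM. Sums over all libraries were 531 to 1203 FPKM for fibroblast markers, led by Dcn, 76.0 to 102 FPKM for endothelial markers, led by Pecam1, and 31434 to 74449 FPKM for muscle fibre markers. Keratins of skin and hair stood out in WT high fat replicate 2 alone, at 32.1 FPKM against at most 1.67 FPKM, a library with ordinary levels of the 6 genes. The part of adipocytes in the levels of the 6 genes was not tested.

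The first comparison was of the high fat diet with normal chow in KO mice. All 6 Schwann cell genes had lower means on high fat, and for Mbp, Pmp22, Prx, S100b and Mag the 3 KO high fat libraries lay below all 3 KO normal chow libraries. Over all tested genes 6.14% were lower without overlap in that comparison, and because the genes were chosen with these results known nothing is read from the 5 of 6. The ratio of means was 0.456 for Mbp, 0.458 for Prx, 0.471 for S100b, 0.567 for Mag, 0.602 for Pmp22 and 0.638 for Sox10, whose groups overlapped. On the log2(FPKM + 1) scale, which understates changes of low genes, the difference was -1.13 (SE 0.56) for Mbp, -0.72 (SE 0.41) for Pmp22 and -0.43 (SE 0.22) for Mag. Each SE comes from a spread shared by all 4 groups, so it is not that of the KO mice alone. For Mbp the WT normal chow libraries spanned 2.56 on that scale, against 0.65 in KO normal chow and 0.78 in KO high fat. The difference of Mbp was -1.11 without KO normal chow replicate 1 and -1.30 without replicate 3, the libraries with lymphocyte markers.

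The peripheral myelin list in the same comparison had 15 of 15 tested genes below 0, with a median difference of -0.74 on the log2 scale against 0.03 over all genes tested. The median was -0.68 without KO normal chow replicate 1 and -0.84 without replicate 3. Adjusted over all genes, limma called 0 of the 15, as it called 0 of all 11945 genes (0% of them), and 6 of the 15 had an unadjusted p under 0.05 in the direction of lower, against 4.73% of all genes. The lowest adjusted p of the list was 0.36, for Cnp, at 14.1 ± 1.61 FPKM in KO normal chow and 9.44 ± 1.37 FPKM in KO high fat (SD, n = 3 each, limma). For Cadm4 the difference was -0.57 (SE 0.41), with an adjusted p of 0.561 by limma. The list was drawn up with the values of the 6 Schwann cell genes known. The mean of its centred values followed that of the 6 over the 12 libraries (r = 0.99). Its genes are thus not separate observations. Counts such as 15 of 15, here and in the comparisons below, describe a shared pattern of the libraries and are no test of the list.

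In WT mice the diet comparison of the 6 genes lay near 0. Differences ran from -0.12 (SE 0.32) for S100b to 0.16 (SE 0.56) for Mbp on the log2 scale, while the ratio of mean FPKM on high fat to that on normal chow was below 1 for all 6, at 0.798 for Mbp, 0.819 for Prx and 0.967 for Mag. The direction for these 3 genes thus depended on the scale. In WT no gene had groups without overlap, where 6.2% of all tested genes were higher and 6.88% lower without it. The peripheral myelin list had a median difference of 0.04 against -0.01 over all genes, with 9 genes above and 6 below 0. By limma, 0 of its 15 genes passed at an adjusted p of 0.05 and 0 at an unadjusted p of 0.05, while 0.1% of all genes passed adjusted and 4.42% upward and 3.7% downward unadjusted. This comparison turns on WT normal chow replicate 3. Without it the difference of Mbp was 1.00 (SE 0.28), that of Prx 0.76 (SE 0.29) and that of Pmp22 0.51 (SE 0.26), and the median of the 14 myelin genes still tested was 0.52.

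Whether the diet acted differently in the genotypes is the interaction. For the 6 genes it ran from -1.29 (SE 0.79) for Mbp to -0.41 (SE 0.31) for Sox10 on the log2 scale. Without WT normal chow replicate 3 it was -2.12 (SE 0.38) for Mbp, -1.77 (SE 0.39) for Prx, -1.23 (SE 0.34) for Pmp22 and -0.68 (SE 0.23) for Sox10. All 15 peripheral myelin genes, again not separate observations, were below 0, with a median of -0.70 against 0.03 over all genes. That median was -1.19 over 14 genes without WT normal chow replicate 3, -0.47 without replicate 2 of that group, and -0.70 and -0.83 without KO normal chow replicates 1 and 3. By limma 0 of them were called, with a lowest adjusted p of 0.83, and 0% of all genes were. None of the 15 reached an unadjusted p under 0.05 in either direction, which 3.55% of all genes did upward and 2.70% downward. Averaged over the genotypes, the diet difference of the list had a median of -0.35 against 0.01 over all genes, with 15 of 15 below 0, and without WT normal chow replicate 3 a median of -0.09 with 9 of 14 below 0. By limma 0 of the 15 were called, where 0.0586% of all genes were, and 2 had an unadjusted p under 0.05 downward, against 5.94% of all genes.

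**Figure D3:**
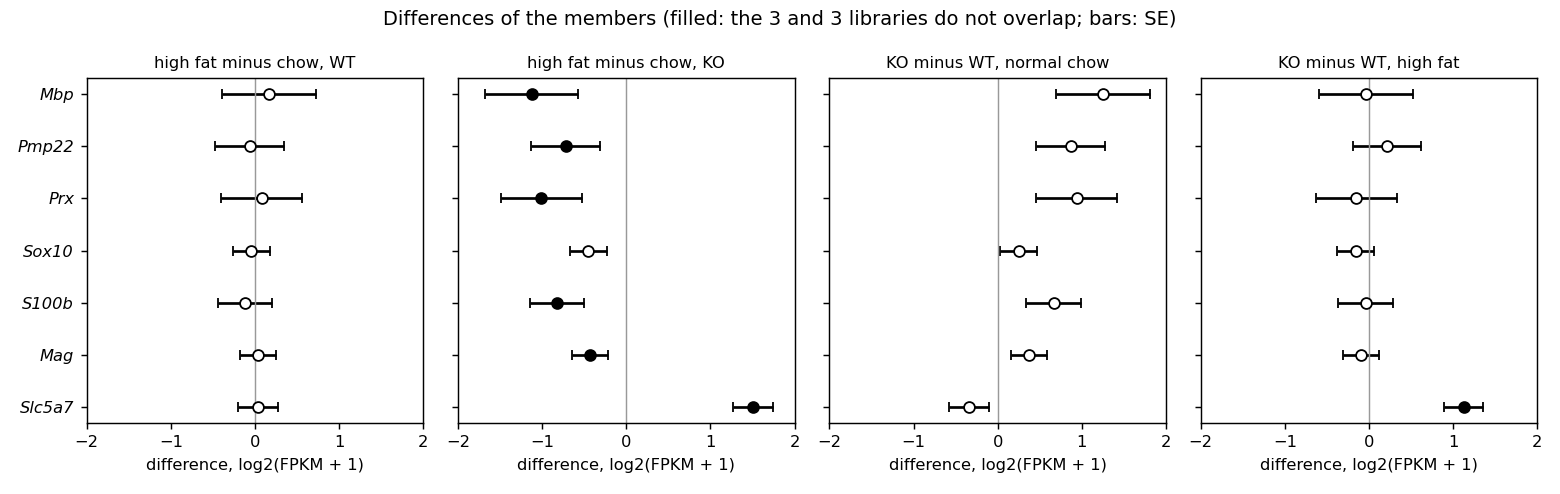
Difference of each gene on the log2(FPKM + 1) scale in 4 comparisons, with its SE, from a spread shared by all 4 groups, as the bar. Filled points have groups of 3 libraries that do not overlap. In KO mice on high fat 5 of the 6 Schwann cell genes are filled and below 0, while Slc5a7 is above 0 at 1.5.

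On normal chow, the 6 genes had higher means in KO than in WT muscle, with overlap in every case because of WT normal chow replicate 3. The ratio of means was 1.70 for Mbp, 1.62 for Prx, 1.61 for S100b, 1.57 for Pmp22, 1.5 for Mag and 1.23 for Sox10. The difference of Mbp was 1.25 (SE 0.56) and that of Sox10 0.25 (SE 0.22) on the log2 scale. In this comparison 0 of the 6 were without overlap, against 8.15% of all genes that were higher without it. Of the 15 tested peripheral myelin genes, again not separate observations, 15 were above 0 with a median of 0.60 against -0.03 over all genes. By limma 0 were called adjusted over all genes, where 0.0586% of genes were, and 4 had an unadjusted p under 0.05 in the direction of higher, against 6.73% of all genes. Of the list only Cnp had groups without overlap. Its adjusted p was 0.277 by limma.

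This comparison turned on a single library. When each of its 6 libraries was left out in turn, limma called 5 myelin genes without WT normal chow replicate 3 and none without any other of the 5. Without it the spread of WT rests on 2 mice that were alike for these genes and on the other groups, and 0.118% of all genes were called. Of the 5, 3 are reported here, picked out by this result. They were Dusp15, a phosphatase of myelinating cells (difference 1.63, SE 0.14, adjusted p = 0.00115), Cldn19, a tight junction protein of Schwann cells (1.38, SE 0.19, adjusted p = 0.0283) and Mal (1.41, SE 0.21, adjusted p = 0.0488). Pmp2 did not reach the filter without that library, and the other 9 of the list were not called. The same omission took the difference of Mbp from 1.25 to 2.09 (SE 0.28), of Prx from 0.94 to 1.62 (SE 0.29) and of Sox10 from 0.25 to 0.52 (SE 0.17), given without a test. In the interaction it left 1 gene called by limma, Dusp15, at -1.83 with an adjusted p of 0.0299, against 0.00839% of all genes.

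**Figure D4:**
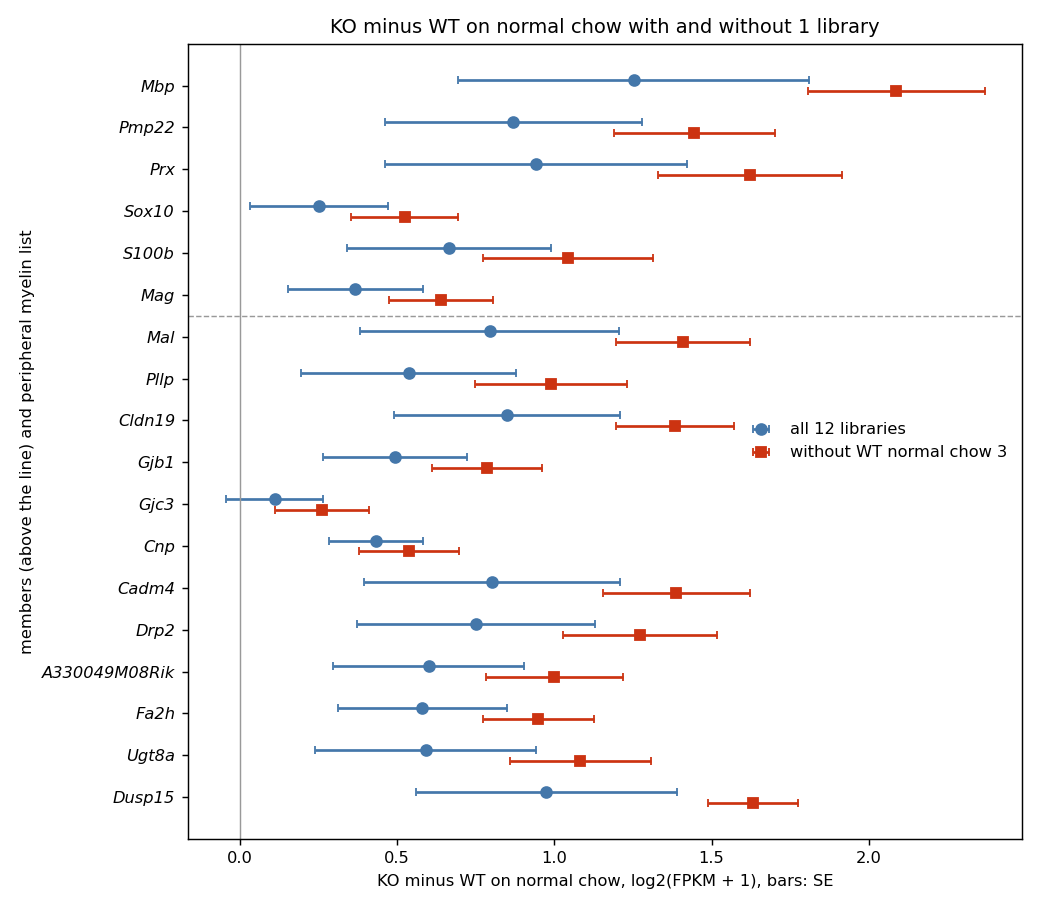
KO minus WT on normal chow on the log2(FPKM + 1) scale, with SE bars, for the 6 Schwann cell genes and peripheral myelin genes tested both ways. Circles are from all 12 libraries and squares from the fit without WT normal chow replicate 3. Every square lies to the right of its circle, for Mbp at 2.09 against 1.25.

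On high fat the genotypes were close. The ratio of the KO to the WT mean was 0.973 for Mbp, 0.908 for Prx, 0.947 for S100b, 0.878 for Mag, 0.859 for Sox10 and 1.14 for Pmp22, and all groups overlapped, while 13% of all tested genes were higher and 10.7% lower in KO without overlap. The difference of Mbp was -0.04 (SE 0.56) and that of Mag -0.09 (SE 0.22), with each SE again from the spread shared by all 4 groups. The peripheral myelin list had a median of -0.10 against -0.01 over all genes, and by limma 0 of its 15 genes were called adjusted, where 0.109% of genes were, and 1 had an unadjusted p under 0.05 and was lower in KO, against 6.45% of all genes.

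Schwann cell genes outside myelin varied less. Of the 15 genes of the Schwann cell identity list, 9 passed the filter, and the median ratio of highest to lowest library was 2.41, against 4.75 for the myelin list and 1.63 over all genes. Plekhb1, which muscle may express as well, led the list at 31.9 to 57.0 FPKM. Dhh, the hedgehog ligand by which Schwann cells pattern the nerve sheath, was at 3.01 FPKM in WT normal chow replicate 3 and 1.10 and 1.01 FPKM in the other 2, like the myelin genes. Scn7a, a sodium channel of non-myelinating Schwann cells, was at 5.29 ± 0.329 FPKM in KO normal chow and 3.44 ± 1.02 FPKM in WT normal chow, with groups that did not overlap, and its genotype difference averaged over diets was 0.53 (SE 0.15, adjusted p = 0.0763 by limma). With WT normal chow replicates 2 or 3 or KO normal chow replicates 1 or 3 left out, that adjusted p ran from 0.0654 to 0.157. Lgi4, a secreted protein needed for myelination, stayed between 2.07 and 3.76 FPKM. By limma no gene of the list was called in any of the 7 comparisons, and 2 of the 9 had an unadjusted p under 0.05 for genotype averaged over diets, both higher in KO, where 13.1% of all genes were. At that level 2 were higher in KO on normal chow (6.73% of all genes) and 1 on high fat (9.79%), and 1 was lower on high fat diet in KO mice (4.73%) and 2 averaged over genotypes (5.94%). Gap43 and Sox2, which repair and immature Schwann cells express, were at most at 0.188 and 0.146 FPKM.

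The perineurium is the cell layer around a nerve bundle, and all 4 genes of its list passed the filter. Itgb4, an integrin that perineurial cells share with Schwann cells, was at 5.54 FPKM in WT normal chow replicate 3 and 2.51 and 2.86 FPKM in the other 2, and at 4.42 to 5.71 FPKM in KO normal chow. Cldn1 was at 1.81 to 4.27 FPKM, Tjp1 at 5.06 to 7.55 FPKM and Slc2a1 at 6.89 to 10.2 FPKM over all libraries. By limma no gene of this list was called in any of the 7 comparisons, and the lowest adjusted p was 0.31, for Cldn1 in the comparison of genotype on normal chow. At an unadjusted p under 0.05, 0 of the 4 passed there, 1 passed, lower, for the diet in KO, where 4.73% of all genes did, and 1, Cldn1, lower, in the interaction, where 2.70% did.

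Node and paranode genes, which hold ion channels and adhesion molecules at the gaps of the myelin sheath, were mostly too low to test, with 2 of 12 genes past the filter. Ank3 was even, at 8.24 to 11.7 FPKM. Cntnap2 was at 6.16 ± 0.527 FPKM in KO high fat and 3.46 ± 1.25 FPKM in KO normal chow (SD, n = 3 each), the opposite order to the myelin genes. Its adjusted p by limma was 0.431. Cntnap1 and Kcna1 had means of 0.842 and 0.604 FPKM. No gene of the list was called in any of the 7 comparisons by limma, and 1 of the 2 had an unadjusted p under 0.05, higher on high fat, for the diet in KO (6.56% of all genes) and for the diet averaged over genotypes (7.96%).

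Slc5a7 had a pattern of its own among the 7. It was at 1.44, 1.96 and 2.85 FPKM in KO high fat, and every other library was below all of these. In WT normal chow it was at 0.0991, 0.337 and 0.684 FPKM, in WT high fat at 0, 0.641 and 0.631 FPKM, and in KO normal chow at 0.0960, 0.107 and 0 FPKM. The gene passed the filter only through the 3 KO high fat libraries, so that it had to differ, and it did not pass when any of these was left out. Its means were 2.08 ± 0.713 FPKM in KO high fat and 0.0676 ± 0.0587 FPKM in KO normal chow (SD, n = 3 each). The log2(FPKM + 1) difference was 1.5 (SE 0.23) for the diet in KO mice and 1.12 (SE 0.23) for genotype on high fat, and in WT mice the diet difference was 0.04 (SE 0.23). Its correlation with each of the 6 Schwann cell genes lay between -0.29 and -0.04 over 12 libraries.

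The genes closest to Slc5a7 in pattern were not nerve genes of the lists. Oxtr, the oxytocin receptor, was the nearest (r = 0.94), at 2.27, 4.20 and 6.88 FPKM in KO high fat and 0.0698 to 2.41 FPKM elsewhere. The transcript 1700047G03Rik (r = 0.94), the acute phase gene Saa3 (r = 0.94), Fmr1 (r = 0.92), the imprinted gene Mest (r = 0.91) and the proton pump subunit Atp6v0d2 (r = 0.91) followed. Saa3 was at 2.43, 7.25 and 6.44 FPKM in KO high fat and at most at 1.68 FPKM elsewhere. Lep, the fat cell hormone leptin, which was looked at after its values were seen, was at 69.0, 63.3 and 93.4 FPKM in KO high fat and at 0.316 to 50.6 FPKM elsewhere. The sum of the 6 adipocyte markers was not highest in these libraries. Cfd made up most of that sum in KO normal chow replicates 1 and 3. Cidec was at 92.8 to 138 FPKM in KO high fat and at 0.802 to 136 FPKM elsewhere. Adipoq, Plin1, Cfd and Retn had their highest values in KO normal chow. The part of fat cells in the Slc5a7 level was not tested.

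Of the 14 genes in the motor axon and cholinergic list 4 passed the filter. Chat and Slc18a3, which make and pack acetylcholine, and the motor neuron factor Mnx1 were listed at 0 in all 12 libraries, which in these files can be a failed estimate, and the neurofilament genes Nefl, Nefm and Nefh were at most at 0.0613, 0.0873 and 0.146 FPKM. Uchl1, a ubiquitin hydrolase of neurons, was at 2.75, 4.81 and 3.65 FPKM in WT normal chow and 4.08, 4.94 and 5.73 FPKM in WT high fat. It was at 6.99, 12.1 and 32.7 FPKM in KO normal chow and 13.8, 30.9 and 9.60 FPKM in KO high fat. All 6 KO libraries were above all 6 WT libraries, as they were for 1.72% of all tested genes. The difference averaged over diets was 1.63 (SE 0.34), and its adjusted p by limma was 0.0552. Uchl1 was highest in KO normal chow replicate 3 and KO high fat replicate 2. The mean centred level of the denervation list described below was also highest there, at 0.72 and 0.60 on the log2 scale. Which cells held the Uchl1 transcript was not tested. Stmn2, a tubulin-binding protein of neurons, was at 2.28 ± 0.107 FPKM in KO high fat and at 3.54 ± 0.267 FPKM in WT high fat (SD, n = 3 each). By limma its adjusted p was 0.117. The choline transporter Slc44a1 was at 14.3 to 23.2 FPKM and Prima1, the anchor of acetylcholinesterase, at 3.22 to 10.2 FPKM. By limma 0 of the 4 were called in any of the 7 comparisons, and 2 had an unadjusted p under 0.05 for genotype averaged over diets, both higher in KO, against 13.1% of all genes. On high fat 2 were higher in KO (9.79% of all genes) and 2 lower (6.45%) at that level, Stmn2 and Prima1 being the lower ones. There was 1 higher for genotype on normal chow (6.73%), 1 lower for the diet in KO (4.73%) and 1 lower in the interaction (2.70%).

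Muscle that loses its nerve supply is known to raise acetylcholine receptor subunits and myogenin. Whether nerve supply was lost in these mice was not tested, and the paper describes a progressive myopathy in this knockout with age. Of the 13 genes of the denervation list, 11 passed the filter. Averaged over diets, 11 of 11 were above 0 in KO against WT, with a median of 0.61 against -0.02 over all genes, and 7 had an unadjusted p under 0.05 upward, against 13.1% of all genes. Chrne, the epsilon subunit of the adult receptor at innervated synapses, was the only gene of the 6 nerve lists called in any of the 7 comparisons. It was at 12.2, 10.2 and 12.5 FPKM in WT normal chow, 14.1, 11.8 and 7.93 FPKM in WT high fat, 14.4, 19.4 and 16.3 FPKM in KO normal chow and 31.5, 25.5 and 18.4 FPKM in KO high fat. All KO libraries were above all WT libraries. Its difference was 0.79 (SE 0.15, adjusted p = 0.0455 by limma), in a comparison in which 0.862% of all genes were called. The call was lost without the filter (adjusted p = 0.0798), with a replicate block (0.0725) and in 7 of the 12 fits that left out 1 library, with adjusted p-values up to 0.126.

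Within that list, Chrnb1, another receptor subunit, was at 14.6 to 22.6 FPKM in WT and 17.8 to 37.4 FPKM in KO, with an adjusted p of 0.0886 by limma. Gadd45a, a stress response gene, was at 13.2 to 24.7 FPKM in WT and 15.9 to 34.7 FPKM in KO, with an adjusted p of 0.208. Myh8, a perinatal myosin, did not differ by more than its spread, at 0.00 (SE 0.12). Its neighbour Myh4 was listed at 0 in all libraries, and how reads were shared out within this family was not tested. Chrna1, Myh3 and Myog, named after their values were seen, had adjusted p-values of 0.0588, 0.0588 and 0.0633 by limma, with differences of 0.84, 1.43 and 0.96. The high libraries of this list were not those of the myelin genes. Its mean centred level on the log2 scale was highest in KO normal chow replicate 3, at 0.72, and lowest in WT normal chow replicate 3, at -0.36, the library with the most Mbp.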

How the data were processed

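RNA was extracted from proximal hind leg muscle and sequenced by the authors, with 1 library for each of 12 mice. The authors deposited 1 FPKM value per gene row and library (23179 rows per file), without pooling replicates. The submitters' processing notes name TopHat2 2.0.8b, Cuffdiff 2.1.1 and mm10, with no role or order, and the annotation is not given in the sources used here. FPKM totals were 484182 to 691621 when Mir324 was left out, which held most of the total in KO normal chow replicate 3. Reads per library are unknown, so no counting interval can be given.

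Samples were grouped by title. Genes with at least 1 FPKM in at least 3 libraries (11945) were tested on log2(FPKM + 1) in limma 3.58.1 (R 4.3.3). The fit had 1 mean for each of 4 groups, let the variance follow the intensity and left 8 residual degrees of freedom. The SEs and p-values of every comparison thus rest on a spread shared by the 4 groups. All p-values are two-sided, adjusted by Benjamini-Hochberg over all genes tested and called at 0.05. There were 7 comparisons, namely diet in each genotype, genotype on each diet, the interaction, and genotype and diet averaged over the other factor. Nothing in the labels ties mice to separate litters or cages, so p-values measure the spread between these mice.

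The 7 genes, the 6 lists of nerve genes (74 genes, 45 tested) and the 8 lists of other cell types were chosen with earlier results of these data known. Named are the 7 genes, Cryab and Hspb2, the 4 genes of highest mean in each nerve list and any called, the 6 genes nearest in pattern, and the leading marker of a cell type; others are said to have been picked after their values were seen. Some genes that the rule names are not reported here. The fit was tested on simulated data. Other values were computed with Python 3.11.15, NumPy 2.4.6 and pandas 2.3.3. Alternatives were a pseudocount of 0.1, no filter, a block for the replicate number, a fit to the groups of a comparison alone, genotype from the label, quantile normalization and the omission of each library. Each library was left out only in the comparisons that use its group.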

Additional observations from a re-analysis of the deposited data

How the results depend on the processing

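Of the 7 counts of called nerve genes, those for diet in WT, diet in KO, genotype on high fat and diet averaged over genotypes were 0 under all alternatives run. Diet in KO and genotype on high fat were not refitted with WT normal chow replicate 3 alone left out, although it enters their shared spread. Fitted to their 2 groups alone, without any WT normal chow library, both counts were also 0. For genotype on normal chow the count was 0 in all but 1, ranging from 0 to 5 over the libraries left out, and for the interaction from 0 to 1, both highest without WT normal chow replicate 3. For genotype averaged over diets the count of 1 became 0 without the filter, 0 with the replicate block and 0 with genotype from the label, and ranged from 0 to 6 over the libraries left out, where it was 6 without KO normal chow replicate 2, 4 without WT high fat replicate 3 and 0 without WT normal chow replicate 1, WT high fat replicate 2, KO normal chow replicate 3 or KO high fat replicates 1 and 2. Chrne took the other direction with genotype from the label, at -0.37; the Cryab and Hspb2 levels stand with the titles, not with that label. Over all genes the count for that comparison was 103, against 42 without the filter, 40 with the replicate block, 200 with quantile normalization, 0 with the label and 10 to 1200 over the libraries left out. For diet in KO the count over all genes was 0, against 15 when only the 2 groups were fitted.

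Of 442 recomputed differences of the 7 genes, 427 moved by less than 1 SD, and 34 had the other sign, of which 2 had a size above 0.5 as reported (Slc5a7 for genotype on high fat and for the interaction, both with genotype from the label, at -0.58 and -0.40). The 15 others came from a pseudocount of 0.1 (7, where Slc5a7 in the KO diet comparison became 3.72), the genotype label (5) and the omission of WT normal chow replicate 3 (3, all Mbp). Same-numbered libraries correlated at -0.81 to 0.39 in their deviations, which does not show that the replicate numbers pair the mice and cannot exclude it. For diet in WT, same-numbered replicates 1 and 3 correlated at 0.387 and 0.219, against at most -0.004 and 0.122 with other numbers. In the other comparisons no same-numbered pair stood above all others. The block changed no other call among the nerve list genes. Over all genes it took the counts from 12 to 7 for diet in WT, 7 to 4 and 13 to 5 for genotype on normal chow and on high fat, and 7 to 1 for diet averaged over genotypes. Low genes such as Slc5a7 and Mag are limited by depth, which is not known in reads.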
